A study of Mus musculus with 25 samples.

Results

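The mouse genome carries 39 Hox genes in 4 clusters, and 38 of them, among 21887 protein-coding genes of the annotation, were examined for peaks of CTCF, SMC1, TCF-1, NIPBL and H3K27ac. The members are defined by gene name. On the mm10 build (GRCm38) the Hoxa cluster ran from its first to its last Hox gene over chr6:52155367-52260880 (10 of the members), Hoxb over chr11:96194316-96368254 (10), Hoxc over chr15:102921131-103036856 (9) and Hoxd over chr2:74668225-74765142 (9). Each window also took in 100 kb on both sides.

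The study profiled chromatin by immunoprecipitation and sequencing in 25 samples from a pair of mouse lines to follow how TCF-1, the T cell factor encoded by Tcf7, reorganises the genome. NIH-3T3 fibroblasts were untreated or had TCF-1 induced, and Scid.adh, a thymic lymphoma line used as a model of DN3 thymocytes, came as empty vector cells and TCF-1 knockout cells. There were 7 fibroblast and 18 DN3 lists of peaks, 2 per antibody and condition, except fibroblast SMC1 (1 list per condition) and fibroblast TCF-1 (1 list, induced). NIPBL and H3K27ac were profiled in DN3 cells only. The labels do not say how TCF-1 was induced or deleted, whether the knockout was 1 clone, or whether lists came from separate cultures, so p-values measure the spread between lists, which may be technical. The TCF-1 antibody was used in induced fibroblasts and empty vector cells alone, so the labels were not checked by the targeted protein.

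Hox genes encode homeodomain transcription factors that give cells their position along the body axis. Within a cluster they lie in the order in which they act from head to tail, and active and silent stretches are kept apart by CTCF, a zinc finger protein that stops the loop-forming cohesin ring, of which SMC1 is a subunit. NIPBL loads cohesin onto DNA, H3K27ac marks active promoters and enhancers, and in blood several Hox genes act in stem and progenitor cells and are switched off as T cells mature.

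Each value below is the number of base pairs under peaks, because the CTCF, SMC1 and TCF-1 lists gave positions only. The read depth of the lists is unknown. Lists differed in size: CTCF lists covered 17.8 to 20.1 Mb in untreated and 34.3 to 37.6 Mb in induced fibroblasts, and 16.6 to 27.8 Mb in DN3 cells. SMC1 lists covered 94.4 and 97.7 Mb in fibroblasts, 37.5 to 38.7 Mb with the empty vector and 52.3 to 56.4 Mb in the knockout. Marker genes went with the labels: SMC1 coverage was higher in fibroblasts at 10 of 10 fibroblast marker genes and higher in DN3 cells at 8 of 11 thymocyte marker genes, with Rag2 the exception in the other direction. With every list scaled to the same total of covered bp the counts were 9 of 10 and 9 of 11, with Pdgfrb turned to higher in DN3 cells. The 4 windows held 39 to 67 CTCF peaks per fibroblast list and 37 to 46 per DN3 list, and 95 to 98 against 47 to 64 SMC1 peaks.

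The clusters also hold microRNA genes, several of which target Hox messages, and their mature sequences are shown to place them among the peaks, with bases 2 to 8, the seed, in capitals (RefSeq, GRCm38.p6). miR-10a and miR-10b share 1 seed, miR-196a and miR-196b another, and miR-615 has its own.
miR-10b-5p (Hoxd, chr2:74726074-74726096, + strand): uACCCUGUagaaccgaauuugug
miR-10a-5p (Hoxb, chr11:96317186-96317208, + strand): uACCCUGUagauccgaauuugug
miR-196b-5p (Hoxa, chr6:52230129-52230150, − strand): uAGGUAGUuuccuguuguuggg
miR-196a-5p (Hoxb, chr11:96265187-96265208, and Hoxc, chr15:102973365-102973386, + strand): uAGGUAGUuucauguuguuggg
miR-615-3p (Hoxc, chr15:103014969-103014990, + strand): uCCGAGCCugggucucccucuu
Of these microRNAs only miR-615, within the Hoxc5 gene body, lay under a peak. Its mature sequences, the part examined, did so in both fibroblast SMC1 lists and in no DN3 list.

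RefSeq promoter entries matched 22 of the 38 members (24 entries), and 4 promoters are printed from 250 bases before the start up to the start because they lie under or beside peaks in which the lists differ. Hoxd9, which acts in limb and trunk patterning, is shown with the 161 bases in capitals that lay under CTCF peaks in 4 of 4 fibroblast lists and in 0 of 4 DN3 lists. Hoxa5, needed for lung and airway development, had all of its printed bases under CTCF in 4 of 4 fibroblast lists, and its capitals mark the 172 bases under the fibroblast TCF-1 peak. Hoxb4, which promotes self-renewal of blood stem cells, was the only matched promoter under H3K27ac in 4 of 4 DN3 lists, and its capitals mark the 228 bases that all of them covered. Hoxd8 was the only matched promoter with a TCF/LEF motif, ATCAAAG on either strand, and its capitals mark the 2 matches, both on the reverse strand. The fibroblast TCF-1 peak there, chr2:74704624-74705375, began just past the printed bases.
Hoxd9 (chr2:74697513-74697762, + strand): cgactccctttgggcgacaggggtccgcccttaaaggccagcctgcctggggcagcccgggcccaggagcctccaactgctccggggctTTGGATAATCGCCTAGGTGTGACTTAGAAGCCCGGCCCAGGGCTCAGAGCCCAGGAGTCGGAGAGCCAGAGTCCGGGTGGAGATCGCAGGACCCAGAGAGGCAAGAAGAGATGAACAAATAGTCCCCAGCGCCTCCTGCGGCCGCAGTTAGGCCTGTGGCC
Hoxa5 (chr6:52204588-52204837, − strand): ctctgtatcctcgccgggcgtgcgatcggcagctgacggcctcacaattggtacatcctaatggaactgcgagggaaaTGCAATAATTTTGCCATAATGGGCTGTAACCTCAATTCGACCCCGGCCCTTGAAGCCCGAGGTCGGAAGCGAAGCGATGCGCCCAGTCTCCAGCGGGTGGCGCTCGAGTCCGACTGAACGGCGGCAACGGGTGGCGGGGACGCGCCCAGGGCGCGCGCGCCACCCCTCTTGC
Hoxb4 (chr11:96318017-96318266, + strand): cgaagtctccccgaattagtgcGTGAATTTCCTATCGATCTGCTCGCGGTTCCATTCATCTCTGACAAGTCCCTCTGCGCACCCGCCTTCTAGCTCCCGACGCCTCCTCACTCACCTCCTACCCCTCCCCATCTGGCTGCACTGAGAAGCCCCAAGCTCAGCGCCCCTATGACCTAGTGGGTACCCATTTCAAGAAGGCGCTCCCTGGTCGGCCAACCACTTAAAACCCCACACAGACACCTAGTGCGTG
Hoxd8 (chr2:74704365-74704614, + strand): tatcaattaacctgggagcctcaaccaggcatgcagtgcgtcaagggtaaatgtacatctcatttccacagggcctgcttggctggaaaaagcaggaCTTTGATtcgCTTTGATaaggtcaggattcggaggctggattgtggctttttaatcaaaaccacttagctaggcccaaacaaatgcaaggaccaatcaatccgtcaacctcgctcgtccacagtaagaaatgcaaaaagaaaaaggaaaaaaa
The TCF/LEF motif was in 1 of the 24 Hox entries and in 3.73% of 32851 mouse promoters of the same length. The core CTCF motif, searched on both strands, was in 0 of 24 and in 2.43% of all promoters. A match or its absence in these windows is a description of letters only.

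CTCF had a set of sites in each cluster that were in every list of both lines. Merged over the 8 CTCF lists, the windows held 80 regions, of which 25 were in every list, against 30.0% of regions genome-wide. In Hoxa these were chr6:52221406-52222299 between Hoxa7 and Hoxa9, chr6:52240208-52241492 at Hoxa10, chr6:52256678-52257561 between Hoxa11 and Hoxa13, and chr6:52270226-52271170 between Hoxa13 and Evx1, another homeobox gene. Hoxd had 6, from chr2:74663356-74664087 between Evx2 and Hoxd13 to chr2:74715591-74716613 at Hoxd3. Hoxc had 3, among them chr15:102987124-102987952 between Hoxc9 and Hoxc8 and chr15:103013292-103014383 at Hoxc5. Hoxb had 12, including chr11:96278589-96279295 between Hoxb9 and Hoxb8, chr11:96294299-96295236 at Hoxb6 and chr11:96311117-96312162 at Hoxb3.

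At gene level, 21 members carried CTCF (body with 2 kb on both sides) in 4 of 4 fibroblast lists and 16 in 4 of 4 DN3 lists, against 53.0% and 53.8% of all genes. Hoxd12, a posterior gene that helps shape the digits, was covered in all 8 lists within a narrow range. It had 322 and 309 bp in untreated and 357 and 314 bp in induced fibroblasts, 326 and 358 bp with the empty vector and 345 and 372 bp in the knockout. The groups overlapped. CTCF and SMC1 covered 0 bp in every list at Hoxb1, Hoxb2, Hoxc11, Hoxc12, Hoxc13, Hoxd1 and Hoxd4.

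**Figure D1:**
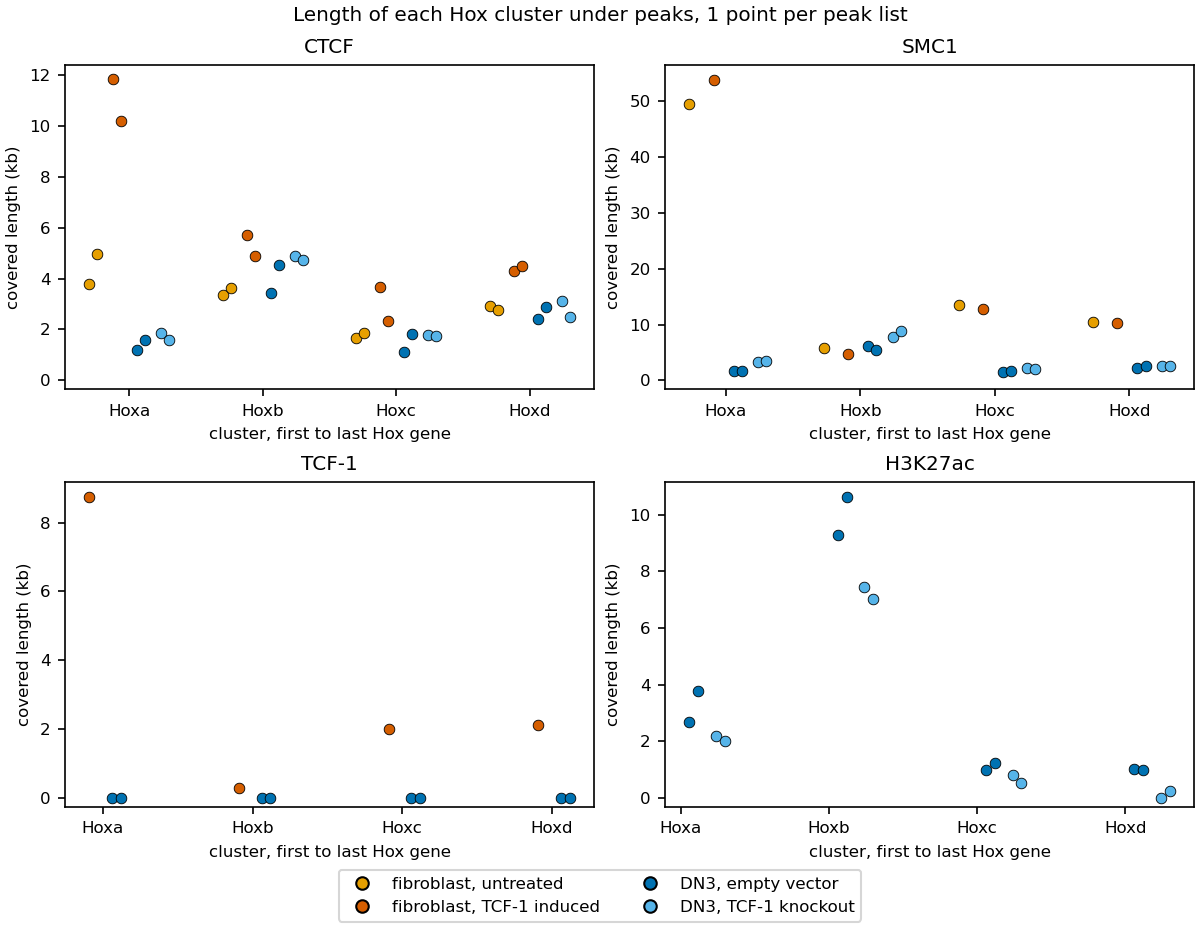
Base pairs under peaks (kb, y axis) between the first and last gene of each Hox cluster (x axis), 1 point per peak list, for CTCF, SMC1, TCF-1 and H3K27ac, with colours for the 4 conditions. Hoxa stands out in fibroblasts, with 49.5 and 53.9 kb under SMC1 against 1.68 to 3.56 kb in DN3 cells, while H3K27ac, profiled in DN3 cells only, was highest in Hoxb.

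SMC1 lay as a broad block over the anterior part of the Hoxa cluster in fibroblasts and was nearly absent there in DN3 cells. Between the first and last Hoxa gene, 46.9% of the DNA was under SMC1 peaks in untreated and 51.0% in induced fibroblasts, against 1.59% to 3.38% in the DN3 lists. The widest SMC1 peak anywhere was 42117 and 33655 bp in the fibroblast lists and 7173 to 10820 bp in the DN3 lists. Whether SMC1 peaks were called with the same settings in both lines is not given in the sources used here, so a difference of calling and a difference of the lines cannot be told apart in these covered lengths and widths. Per Mb covered by the whole list, this was 507 and 570 bp in fibroblasts and 43.7 to 64.1 bp in DN3 cells, which do not overlap. The block ended before the CTCF region between Hoxa7 and Hoxa9 that every list held. On the Hoxa2 to Hoxa7 side of it, 66.0 kb long, SMC1 covered 71.1% in untreated and 78.4% in induced fibroblasts, which was 46923 and 51779 bp, against 30 and 38 bp with the empty vector and 238 and 423 bp in the knockout.

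On the Hoxa9 to Hoxa13 side, 38.6 kb long, the lines were close. SMC1 covered 1740 and 1421 bp in fibroblasts, 1022 and 1010 bp with the empty vector and 2493 and 2511 bp in the knockout, and the fibroblast values fell between those of the DN3 conditions. The dividing region was chosen after the values were seen, and the contrast of the sides was not tested. The widest SMC1 peak of the block was 15716 bp in untreated fibroblasts (chr6:52157543-52173258, rank 47 by width of 105033 peaks) and 18044 bp in induced ones (chr6:52155698-52173741, rank 18 of 95293). In the Hoxa window of the DN3 lists the widest SMC1 peak was 681 to 1127 bp.

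**Figure D2:**
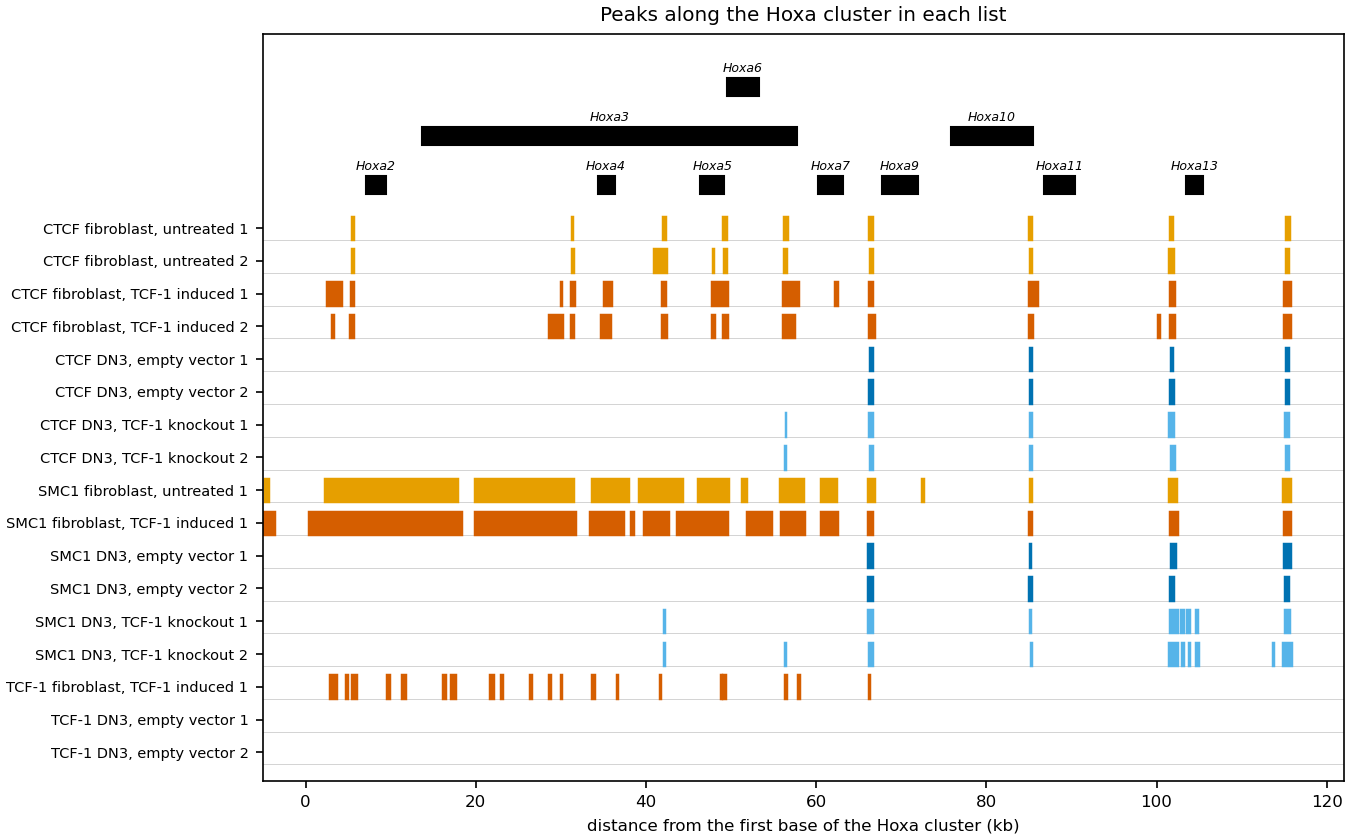
Peaks of CTCF, SMC1 and TCF-1 along the Hoxa cluster, 1 row per list, with distance from the cluster's first base in kb on the x axis and gene bodies as black bars. Broad SMC1 peaks fill the Hoxa2 to Hoxa7 side in both fibroblast lists, TCF-1 peaks lie on the same side in the induced list, and the sites right of Hoxa7 recur in the CTCF and SMC1 lists of both lines.

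Single genes followed the block. Hoxa2, which patterns the hindbrain and facial skeleton, lay entirely under SMC1 in both fibroblast lists (6415 bp each) and had 0 bp in 4 of 4 DN3 lists. Hoxa3, required to form the thymus and parathyroid, had 35280 and 38176 bp in untreated and induced fibroblasts, 0 and 0 bp with the empty vector and 220 and 423 bp in the knockout. Its annotated body is 44009 bp long and overlaps Hoxa4 to Hoxa7, so its value includes theirs in part. Hoxa4 had 4546 and 4188 bp, Hoxa5 3848 and 5212 bp, Hoxa6 3063 and 5149 bp, and Hoxa7 2284 and 2547 bp in the fibroblast lists, against 0 bp in every DN3 list. None of these 6 genes had overlapping groups.

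The fit across all genes (limma on log2 of covered bp plus 100 bp, Benjamini-Hochberg adjusted, called under 0.05, with TCF-1 status as a covariate) put the difference at −7.51 for Hoxa3 (SE 0.53, adjusted p = 0.000349), rank 21 from the most negative of 16419 genes tested. For Hoxa2 it was −6.03 (SE 0.13, adjusted p = 2.19e-05, rank 144), and for Hoxa4 to Hoxa7 between −4.65 and −5.52. Negative values mean less coverage in DN3 cells, and the size of a difference from lists at 0 bp depends on the 100 bp added. Hoxa2 and Hoxa4 to Hoxa7 entered the test through the fibroblast lists alone, so their direction was fixed by the filter and their p-values are given as a description. Hoxa3 also had coverage in the knockout lists, and its call held in 14 of 14 alternative settings.

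Of the 38 members, 30 passed the filter on low values (covered in at least 2 lists), and a member that passed through 1 line alone had to differ. SMC1 was lower in DN3 cells at 15 and higher at 1 of these 30. Of the 16 called, 9 were covered in fibroblast lists alone: Hoxa2, Hoxa4 to Hoxa7, Hoxb5, Hoxb13, Hoxc4 and Hoxc9. The other 7 were covered in both lines. Genome-wide 49.4% of tested genes were called lower and 8.81% higher, so the count of members is near the background, and the members' median was −1.37 beside −0.72 for all genes. With every list scaled to the same total of covered bp, the median of all genes moved from −0.72 to 0.27 and the genome-wide calls to 21.6% lower and 33.7% higher. The members then stood at 15 lower and 7 higher, with Hoxa13, Hoxb3, Hoxb6, Hoxb8, Hoxd11, Hoxd12 and Hoxd13 higher in DN3 cells. The lists of the lines differ in total length as well as in cell type, and these cannot be told apart.

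Hoxc and Hoxd showed the same direction over shorter stretches. In Hoxc, SMC1 covered 11.6% of the cluster in untreated and 11.1% in induced fibroblasts, against 1.31% to 1.89% in DN3 cells, and in Hoxd 10.9% and 10.6% against 2.23% to 2.71%. Hoxc6, a gene of the thoracic region, had 5305 and 5492 bp in fibroblasts, 378 and 643 bp with the empty vector and 614 and 466 bp in the knockout (log2 difference −3.16, SE 0.24, adjusted p = 0.000413 in limma). Hoxc4 had 2306 and 1575 bp in fibroblasts and 0 bp in every DN3 list (−4.33, SE 0.17, adjusted p = 5.45e-05 in limma). The lists of the lines did not overlap at either gene. Hoxc4 passed the filter through the fibroblast lists alone, so its direction was fixed by it and its p-value is given as a description.

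In Hoxd, the gene with the clearest gap was Hoxd8, with 2750 and 3217 bp in fibroblasts against 2 and 21 bp with the empty vector and 90 and 0 bp in the knockout (−4.63, SE 0.31, adjusted p = 0.000305 in limma). Hoxd9, whose promoter is printed above, had 615 and 1267 bp against 0 to 40 bp (−3.03, SE 0.29, adjusted p = 0.000908 in limma). Hoxd3, which helps form the upper neck vertebrae, kept more in DN3 cells, with 5382 and 4278 bp against 749 to 1049 bp (−2.28, SE 0.16, adjusted p = 0.000318 in limma). Toward the posterior end the values of the lines lay close together. Hoxd12 had 329 and 300 bp in fibroblasts and 336 to 349 bp in DN3 cells, and Hoxd13 had 439 and 352 bp against 434 to 696 bp. The lines did not overlap at Hoxd12 and did at Hoxd13, and neither gene was called.

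In Hoxb the direction turned at Hoxb3. SMC1 covered 2.71% to 3.34% of the cluster in fibroblasts and 3.18% to 5.10% in DN3 cells, ranges that overlap. Per Mb listed this was at most 59.4 bp in fibroblasts and 143 to 166 bp in DN3 cells, which do not overlap. Hoxb3, a gene of the hindbrain and of blood progenitors, was the only member called higher in DN3 cells. It had 446 and 271 bp in fibroblasts, 2037 and 1274 bp with the empty vector and 2246 and 2524 bp in the knockout (2.20, SE 0.22, adjusted p = 0.00107 in limma). Hoxb4, which lies within the Hoxb3 body, had 0 bp in fibroblasts, 598 and 0 bp with the empty vector and 699 and 986 bp in the knockout, and was not called (adjusted p = 0.0750 in limma). Hoxb5 (324 and 258 bp in fibroblasts) and Hoxb13 (277 and 226 bp) were at 0 bp in every DN3 list and were called lower there, by −1.96 and −1.81. Both passed the filter through the fibroblast lists alone, so their direction was fixed by it. With 10 kb instead of 2 kb around the gene, which takes in neighbours, Hoxb5 turned to 1.02 higher in DN3 cells.

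Merged regions were counted over the windows, so regions in the 100 kb flanks outside the clusters are included. With no flanks the counts of regions in 1 line alone were much smaller, as given at the end. Of 149 SMC1 regions in the windows, 43 were in both fibroblast lists and no DN3 list (genome-wide 19.0%), with 17 in Hoxa, 14 in Hoxc, 6 in Hoxb and 6 in Hoxd. In the other direction 10 were in every DN3 list and no fibroblast list (genome-wide 6.12%), 9 of them in Hoxb and 1 in Hoxa. Another 28 were in every list (genome-wide 20.9%).

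**Figure D3:**
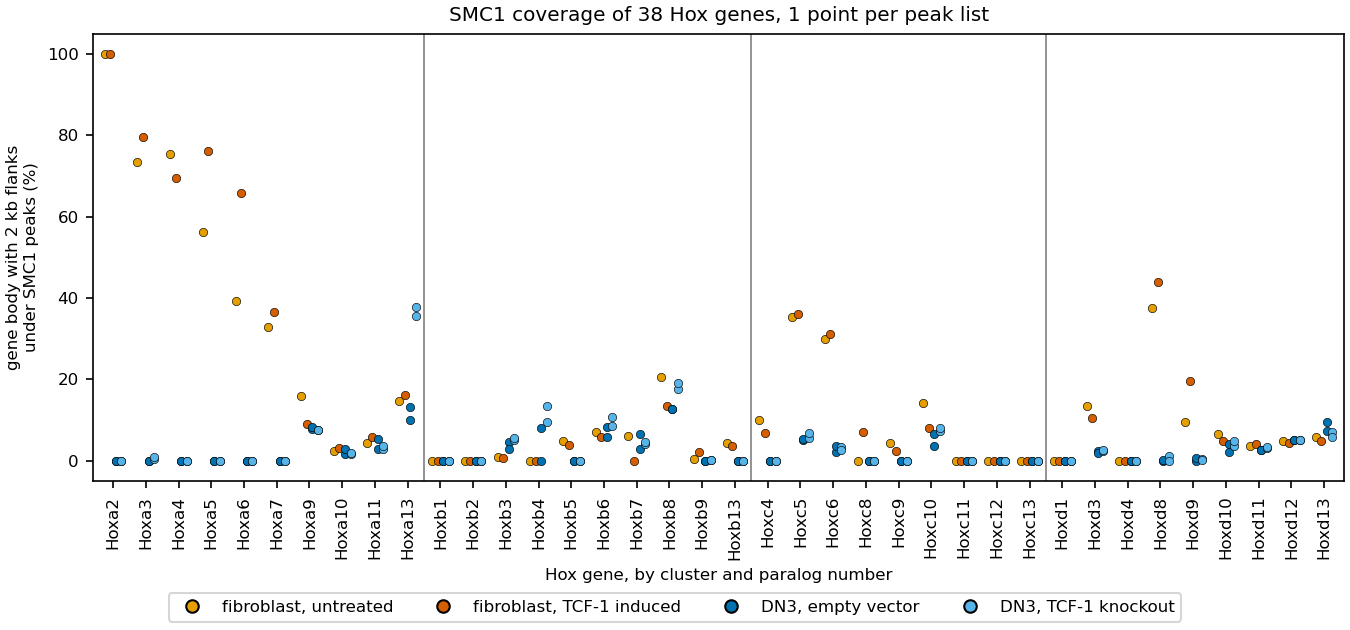
Share of each of 38 Hox genes, body with 2 kb on both sides, under SMC1 peaks (%, y axis), ordered by cluster and paralog number, 1 point per peak list. Fibroblast points reach 100% at Hoxa2 and stay high to Hoxa7, DN3 points lie at or near 0 there, and at Hoxb3 the DN3 points lie above the fibroblast points.

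CTCF itself differed between the lines at fewer genes, and those were again on the anterior Hoxa side and at Hoxd9. On the Hoxa2 to Hoxa7 side CTCF covered 2313 and 3439 bp in untreated and 9229 and 7791 bp in induced fibroblasts, against 0 and 0 bp with the empty vector and 200 and 255 bp in the knockout. Hoxa3 had 1920 and 3163 bp in untreated and 6566 and 6958 bp in induced fibroblasts, 0 and 0 bp with the empty vector and 200 and 255 bp in the knockout. The limma fit gave −4.54 (SE 0.60, adjusted p = 0.00181), rank 21 of 13852 genes tested. Hoxa5 and Hoxa6, which share the same peaks, had 555 and 699 bp in untreated and 1934 and 1122 bp in induced fibroblasts and 0 bp in DN3 lists (−3.42, SE 0.31, adjusted p = 0.000267 in limma).

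Hoxa2 had 393 and 276 bp in untreated, 446 and 544 bp in induced fibroblasts and 0 bp in DN3 lists (−2.34, SE 0.22, adjusted p = 0.000342 in limma). Hoxd9 had 278 and 476 bp, 545 and 442 bp, 17 and 57 bp, and 178 and 55 bp in the same order of conditions (−1.65, SE 0.33, adjusted p = 0.0156 in limma), a call that held in 6 of 17 alternative settings. At none of these 5 genes did the lines overlap. Hoxa2, Hoxa5 and Hoxa6 passed the filter (at least 4 of 8 lists) through fibroblast lists alone, so their direction was fixed by it, while Hoxa3 and Hoxd9 were covered in both lines. Together they were 5 of the 22 members that passed the filter, all lower in DN3 cells, beside 7.67% lower and 2.82% higher genome-wide. With equal totals 6 were lower and 1, Hoxb3, higher, while the genome-wide calls moved to 12.4% lower and 14.7% higher and the median of all genes from −0.10 to 0.10.

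Of 80 CTCF regions, 7 were in every fibroblast list and no DN3 list (genome-wide 3.21%): 4 on the anterior Hoxa side, such as chr6:52203031-52205062 at Hoxa5, then chr15:103002187-103002585 at Hoxc6, chr15:103121394-103121806, and chr2:74697553-74698033 at Hoxd9. The reverse held for 2 (genome-wide 2.36%), chr11:96256071-96256406 between Hoxb13 and Hoxb9 and chr11:96411933-96412324 between Hoxb1 and Skap1. On the Hoxa9 to Hoxa13 side CTCF covered 892 to 1916 bp in fibroblasts and 725 to 1071 bp in DN3 cells, which overlap.

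**Figure D4:**
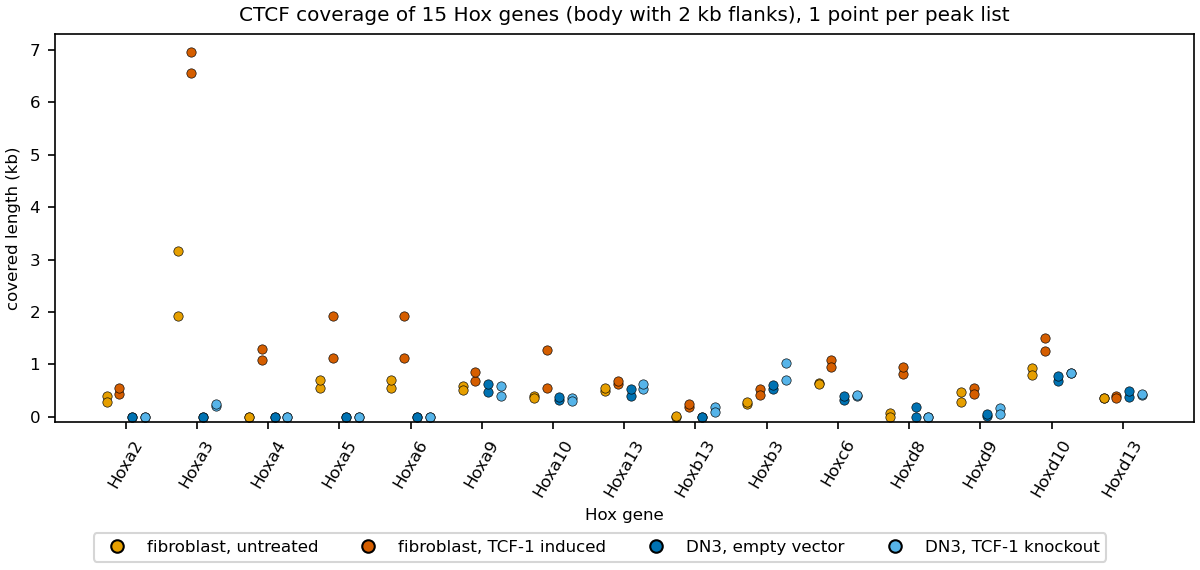
Base pairs under CTCF peaks (kb, y axis) at 15 Hox genes, body with 2 kb on both sides, 1 point per peak list and colours for the 4 conditions. Hoxa3 spans 1920 to 6958 bp in fibroblasts and 0 to 255 bp in DN3 cells, whereas Hoxa9, Hoxa13 and Hoxd13 show overlapping points.

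TCF-1 peaks were listed inside the Hox clusters in induced fibroblasts and not in DN3 cells, whose TCF-1 lists are much shorter. The induced list had 50 TCF-1 peaks in the windows, 30 of them inside the clusters, with 20 in Hoxa, 5 in Hoxc, 4 in Hoxd and 1 in Hoxb. Of the 20 in Hoxa, 19 lay on the Hoxa2 to Hoxa7 side, covering 8534 bp, and 0 on the Hoxa9 to Hoxa13 side, and the remaining one lay on the dividing CTCF region. Peaks reached 11 of 38 members, where 53.6% of all genes had one: Hoxa3 with 5564 bp, Hoxa2 with 1445 bp, Hoxd8 with 1083 bp, Hoxc6 with 1067 bp, Hoxd3 with 1043 bp, Hoxa4 with 683 bp, Hoxa5 and Hoxa6 with the same 641 bp, Hoxc4 with 526 bp, Hoxc5 with 391 bp and Hoxa9 with 200 bp. The TCF-1 profile has 1 fibroblast list, so these values have no replicate.

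Both DN3 TCF-1 lists had 0 bp at 38 of 38 members, where 14.4% of all genes had a peak in both, and 1 peak in the windows, at Mtx2 beyond Hoxd (220 and 274 bp). These lists were short, with 4978 and 5356 peaks against 39489 in fibroblasts. Of 49 merged TCF-1 regions, 48 were held by the fibroblast list alone (genome-wide 83.3%), 0 by the DN3 lists alone (1.63%) and 1 by all 3 (5.73%). With all lists trimmed to the same number of peaks, the widest being kept, the fibroblast list alone held 5 and the DN3 lists alone 1. Of the TCF-1 peaks in the windows, 41 of the 50 overlapped an SMC1 peak of untreated fibroblasts (82.0%, against 83.5% of all TCF-1 peaks) and 46 one of induced fibroblasts (92.0% against 91.0%). Inside the clusters these were 28 and 30 of 30, so 28 of the sites were also under SMC1 in the list without TCF-1. CTCF overlapped 6 and 7 of the 50 in untreated lists (12.0% and 14.0%, beside 19.3% and 21.2% of all TCF-1 peaks) and 15 and 12 in induced lists (30.0% and 24.0%, beside 12136 and 10669 of all 39489 TCF-1 peaks, the former 30.7%).

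CTCF covered more of the clusters, and of the genome, in the induced than in the untreated fibroblast lists. Hoxa had 3801 and 4951 bp untreated and 11832 and 10173 bp induced between its first and last gene, which was 214 and 247 bp per Mb listed without and 315 and 297 bp with TCF-1. The other clusters did not share this per Mb: Hoxb had 190 and 181 bp without and 152 and 142 bp with TCF-1, Hoxd 165 and 138 bp against 114 and 131 bp, and Hoxc 94.5 and 92.8 bp against 97.3 and 67.8 bp. At Hoxa4, expressed in the cervical region, CTCF was at 0 and 0 bp in untreated and 1092 and 1288 bp in induced fibroblasts (3.69, SE 0.15, adjusted p = 0.00952 in limma). Hoxa4 entered the test through the induced lists alone, so its direction was fixed by the filter. Hoxd8 went from 73 and 0 bp to 818 and 943 bp (2.90, SE 0.33, adjusted p = 0.0174), Hoxb13, the most posterior gene of its cluster, from 7 and 22 bp to 197 and 252 bp (1.50, SE 0.17, adjusted p = 0.0169), and Hoxa3 by 1.42 (SE 0.29, adjusted p = 0.0428), all in limma. The conditions did not overlap at any of these 4.

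These were 4 of 24 tested members, none lower, against 32.3% higher and 0.0565% lower of 14152 genes. The median of all genes was 0.82 and that of the members 0.67. With equal totals, the median of all genes was −0.01, the genome-wide share higher was 8.33%, and of the members only Hoxa4, with its direction fixed in this way, was called. No member was called when either untreated list was left out, and 1 was without the induced list of replicate 1. Among merged CTCF regions, 17 of 72 were in both induced and no untreated list (genome-wide 21.2%), 0 the reverse (0.0504%) and 36 in every list (44.5%). The first count was 6 with all lists trimmed to the same number of peaks. Those in the induced lists alone were 7 in Hoxa, 5 in Hoxb, 3 in Hoxd and 2 in Hoxc, among them chr6:52190011-52191382 at Hoxa4 and chr2:74705056-74705921 at Hoxd8.

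SMC1 has 1 list per fibroblast condition, so its comparison has no replicate check. Hoxa5 had 3848 bp untreated and 5212 bp induced, Hoxa6 3063 and 5149 bp, and Hoxd9 615 and 1267 bp, while Hoxc4 had 2306 and 1575 bp and Hoxd3 5382 and 4278 bp. Of 111 regions, 14 were in the induced list alone (genome-wide 11.9%) and 17 in the untreated list alone (20.1%), and 80 in both (68.0%).

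For CTCF between the DN3 conditions no member was called. In simulated data this fit recovered 0 of 200 genes changed by 2 on the log2 scale, so the absence of calls does not show unchanged coverage. Of 13709 genes tested, 18 of them members, limma called 0 (background 0%), with 1116 genes and 2 members under an unadjusted p of 0.05. Those 2 were Hoxa3 (0 and 0 bp with the empty vector, 200 and 255 bp in the knockout, log2 −1.71, adjusted p = 0.0614) and Hoxb13 (0 and 0 against 187 and 91 bp, −1.23, adjusted p = 0.321), both in limma. Both passed the filter through the knockout lists alone, so their direction was fixed by it and their p-values are given as a description. With equal totals 327 genes (2.39%) were called and still no member. Between the first and last gene, Hoxa had 1209 and 1589 bp with the empty vector and 1870 and 1598 bp in the knockout, and Hoxb 3446 and 4528 bp against 4894 and 4739 bp. Of 49 CTCF regions 33 were in every list (55.2%), 0 in the empty vector lists alone (0.460%) and 2 in the knockout lists alone (6.36%), chr11:96198424-96198911 near Hoxb13 and chr6:52211543-52211856 in Hoxa3. The latter count was 5 without the empty vector list of replicate 2 and 7 without the knockout list of replicate 2. When the change of CTCF with TCF-1 was compared between the lines, 5 of 24 tested members had the more negative change in DN3 cells (genome-wide 29.0%) and 0 the more positive one (0.192%).

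SMC1 was called at Hoxa13, a gene of the digits and the urogenital tract, which had 793 and 599 bp with the empty vector and 2272 and 2140 bp in the knockout (log2 −1.54 for empty vector minus knockout, SE 0.19, adjusted p = 0.0453 in limma). The conditions did not overlap, but the call was lost in 11 of 11 alternative settings, including the omission of any 1 of the 4 lists. It was 1 of 21 tested members, against 2.40% higher in the knockout and 0.258% higher with the empty vector among 15125 genes. Hoxa3 followed with −2.03 (adjusted p = 0.0626 in limma). It passed the filter through the knockout lists alone, so its direction was fixed by the filter. Of 78 SMC1 regions, 38 were in every list (genome-wide 43.6%), 8 in both knockout lists alone (9.26%) and 0 in the empty vector lists alone (0.968%). Of the 8, 3 lay at Hoxa13: chr6:52258158-52258642, chr6:52258854-52259312 and chr6:52259840-52260319. The count was 19 without the knockout list of replicate 1. The knockout SMC1 lists were longer throughout, and the part of this in the Hox values was not tested beyond the equal-total setting, where no member and 2.25% of genes were called.

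NIPBL was sparse. It reached 0 of 38 members in 4 of 4 lists, where 33.8% of all genes had a peak in every list. Hoxb3 had 0 and 987 bp with the empty vector and 1763 and 531 bp in the knockout, Hoxb4 0 and 430 bp against 735 and 531 bp, and Hoxb2, Hoxb6 and Hoxd3 had 180 to 241 bp in 1 knockout list each. The conditions overlapped at Hoxb3 and did not at Hoxb4. Hoxb3 and Hoxb4 were the members tested, and neither was called (adjusted p = 0.919 in limma for both). No gene of 10665 was (0%), with 511 under an unadjusted p of 0.05 and neither member among them. NIPBL lists ranged from 9206 peaks, the empty vector list without any in Hoxb, to 23951. Among 13 regions, 2 were in every list (genome-wide 27.5%), at Lnpk and Mtx2 outside Hoxd, and 0 were in 1 condition alone (0.251% for the empty vector, 5.88% for the knockout).

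H3K27ac in DN3 cells covered more of Hoxb than of the other clusters, with 7023 to 10617 bp there and at most 3764 bp in any other. Counting the body with 2 kb on both sides, it marked 5 of 38 members in every list (52.0% of all genes), Hoxa13, Hoxb3, Hoxb4, Hoxb6 and Hoxc6, and 29 in none (43.2%). At Hoxa13 the empty vector list of replicate 1 and the knockout list of replicate 2 had H3K27ac in the flank only. The widest peak there reached into the gene body in the other lists, and the matched promoter was under H3K27ac in 0 lists. Hoxb3 had 6083 and 6072 bp with the empty vector and 4132 and 3827 bp in the knockout, without overlap (log2 0.60, SE 0.07, adjusted p = 0.0338 in limma). Hoxb4 had 2208 and 2311 bp against 1645 and 1712 bp (0.41, adjusted p = 0.0609 in limma), and Hoxb6 3210 and 3096 bp against 2641 and 2414 bp (0.31, adjusted p = 0.130 in limma). Neither of the latter was called, though the conditions did not overlap.

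Hoxa9, a gene of blood progenitors and of leukaemia, had 643 and 1542 bp with the empty vector and 0 and 0 bp in the knockout (3.47, SE 0.44, adjusted p = 0.0347 in limma). These bp lay in its 2 kb flank, on the CTCF region between Hoxa7 and Hoxa9, and not over the gene body. The matched Hoxa9 promoter was under H3K27ac in 0 lists. Hoxa9 entered the test through the empty vector lists alone, so its direction was fixed by the filter. Hoxd12 had 83 and 112 bp against 0 and 6 bp (0.94, SE 0.11, adjusted p = 0.0282 in limma), from the edge of a peak between the bodies of Hoxd13 and Hoxd12. In the flank of Hoxd13 that peak had 1014 and 989 bp against 0 and 221 bp (2.62, SE 0.64, adjusted p = 0.116 in limma). Hoxa13 went the other way within its spread, with 1727 and 2222 bp against 2430 and 1751 bp. Of the 8 members that passed the filter, 3 were higher with the empty vector and 0 in the knockout, against 5.43% and 4.18% of 12129 genes. The call was lost in 6 of 11 alternative settings at Hoxb3, 8 of 11 at Hoxd12 and 5 of 11 at Hoxa9. At Hoxd12 the covered bp were near or under the 100 bp added before the log. Without Hoxa9, the 2 called were Hoxb3 and Hoxd12, and with no filter no member was called. The members' median was 0.64 and that of all genes 0.01, and the lists covered 89.5 to 91.6 Mb with the empty vector and 89.8 to 91.2 Mb in the knockout. The count fell to 1 without the empty vector list of replicate 2 or without either knockout list.

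Over the whole Hoxb window H3K27ac covered 33656 and 35489 bp with the empty vector and 18182 and 18691 bp in the knockout. The 100 kb flanks held 24363 and 24872 bp of this with the empty vector and 10733 and 11668 bp in the knockout, all on the side of Skap1, which encodes an adaptor of the T cell receptor. There the empty vector lists had single peaks of 16517 bp (chr11:96453905-96470421, rank 276 by width of 38827) and 19106 bp (chr11:96451224-96470329, rank 186 of 42180). The widest peaks of that window in the knockout lists were 3861 bp (rank 6000 of 36544) and 5212 bp (rank 3658 of 37629). The other windows also had more with the empty vector: Hoxa 5547 and 8911 bp against 3456 and 2782 bp, Hoxc 987 and 1233 bp against 806 and 517 bp, and Hoxd 4404 and 4404 bp against 3384 and 3586 bp. These window sums were not tested, since 2 lists against 2 cannot give an exact p under 0.333.

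**Figure D5:**
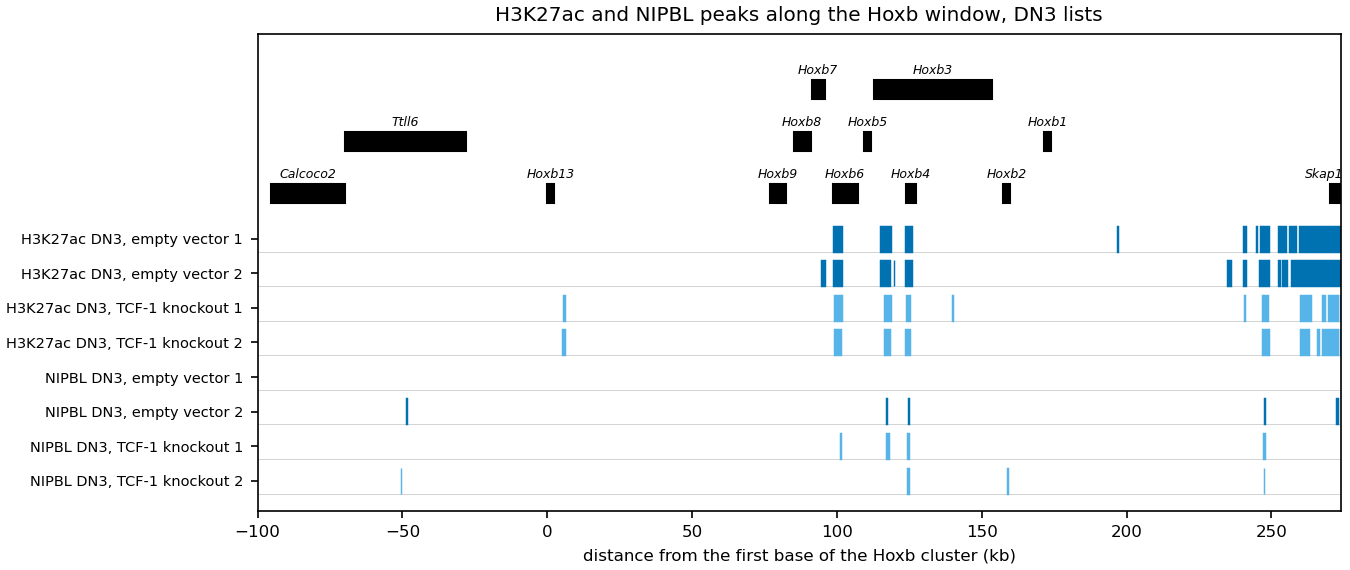
H3K27ac and NIPBL peaks along the Hoxb window in the DN3 lists, 1 row per list, with distance from the first base of the cluster in kb on the x axis and gene bodies as black bars. H3K27ac recurs at Hoxb6, Hoxb3 and Hoxb4 in 4 of 4 lists, and the block toward Skap1 is wider with the empty vector (single peaks of 16517 and 19106 bp) than in the knockout (3861 and 5212 bp).

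Merged H3K27ac regions numbered 26, with 10 in every list (genome-wide 47.9%). There were 4 in both empty vector lists alone (7.99%): chr6:52221385-52222942 on the CTCF region between Hoxa7 and Hoxa9, chr6:52270728-52272046 and chr6:52275180-52276714 between Hoxa13 and Evx1, and chr11:96446453-96449598 between Hoxb1 and Skap1. Only chr11:96199534-96200315, near Hoxb13, was in both knockout lists alone (4.82%). Leaving out an empty vector list raised the first count to 10 (replicate 1) or 7 (replicate 2), and leaving out the knockout list of replicate 2 raised the second to 3. No TCF-1 peak of the DN3 lists lay in the Hoxa, Hoxb or Hoxc windows.

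Regulators of Hox genes were read from lists of cofactors and chromatin complexes. SMC1 was lower in DN3 cells at 7 of 9 TALE cofactors, the Pbx, Meis and Pknox proteins that bind DNA with Hox proteins, at 8 of 13 Polycomb genes, which keep Hox genes silent, and at 0 of 4 trithorax genes, which keep them active, beside the 49.4% of all genes. With equal totals these directions were mixed: 3 TALE genes were lower and 1 higher, 1 Polycomb gene was lower and 3 higher, and the trithorax genes Men1 and Kmt2a and the caudal factor Cdx2 were higher, beside 21.6% lower and 33.7% higher of all genes. With the lists as deposited, the 2 tested of 3 caudal factors were not called. For CTCF the counts between lines were 1 of 8 TALE genes (Meis1, lower in DN3), 1 of 12 Polycomb genes (Phc1, lower), 0 of 4 and 0 of 2, beside 7.67% lower and 2.82% higher of all genes. With equal totals 2 TALE genes were lower, and 1 Polycomb gene was lower and 1 higher, beside 12.4% and 14.7%. H3K27ac differed at 1 of 13 Polycomb genes (Phc1, higher with the empty vector) and at none of 5 TALE, 4 trithorax and 1 caudal genes, beside 5.43% higher with the empty vector and 4.18% in the knockout among all genes, and with equal totals at none of these genes. With TCF-1 induced in fibroblasts CTCF was higher at 2 of 9 TALE, 3 of 12 Polycomb, 2 of 4 trithorax and 1 of 2 caudal genes, beside 32.3% of all genes, and with equal totals at Cdx1 alone, beside 8.33%.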

How the data were processed

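Cells had been fixed with 1% formaldehyde and libraries made with the NEBNext Ultra II kit for paired sequencing, per the labels' protocols. Bowtie2, MACS2, bedtools and mm10 are named per the submitters' processing notes. Versions, settings and any controls were not given in the sources used here. The CTCF, SMC1 and TCF-1 lists that the authors deposited hold positions only. For NIPBL and H3K27ac the authors deposited, for each peak, a score and a fold enrichment (ratio), neither used in a test, and −log10 p and q-values, of which q served to rank peaks within a list.

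Gene bodies came from RefSeq (GRCm38.p6), without exons. Covered base pairs over each body with 2 kb on both sides were taken as log2 of bp plus 100 bp and fitted with limma 3.58.1 (R 4.3.3) over all 21887 protein-coding genes, keeping genes covered in at least as many lists as the smaller group holds, with Benjamini-Hochberg adjustment and a threshold of 0.05. Peaks were merged within an antibody, and at least 1 bp of overlap placed a region in a list. Python 3.11.15, numpy 2.4.6, pandas 2.3.3 and matplotlib 3.10.9 were used.

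Alternatives were another pseudocount (1000 bp), no filter, equal totals of covered bp, equal list length, 10 kb around genes, stricter peaks, 50% overlap, no flanks, lists with or without TCF-1 only, a replicate block, and leaving out each list. In simulated data with 200 genes changed by 2 on the log2 scale, 92 were recovered between lines (CTCF, 13852 genes), 0 between DN3 conditions for CTCF (13709 genes) and 165 for H3K27ac (12129 genes). The members, lists and alternatives were chosen with earlier results of these data known. Members past the threshold, and otherwise those with most covered bp, are named with values. One Hox gene is not reported here.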

Additional observations from a re-analysis of the deposited data

Results flagged for a closer look

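The change of CTCF with TCF-1 differed between the lines at 5 of 24 tested members, by an interaction term in limma with Benjamini-Hochberg adjustment (empty vector minus knockout in DN3, less induced minus untreated in fibroblasts). The value was −3.69 for Hoxa4 (SE 0.22, adjusted p = 0.00240), −3.12 for Hoxa3 (SE 0.37, adjusted p = 0.00610), −2.73 for Hoxb13 (SE 0.34, adjusted p = 0.00705), −1.39 for Hoxb6 (SE 0.40, adjusted p = 0.0488) and −1.16 for Hoxb3 (SE 0.33, adjusted p = 0.0467), all in limma. Hoxa4 had CTCF in the induced lists alone (1092 and 1288 bp, and 0 bp in the other 6 lists), so its value is the fibroblast change with the sign turned and holds no information on DN3 cells. The calls at Hoxb6 and Hoxb3 were lost in 12 and 13 of 15 alternative settings (highest adjusted p 0.681 and 0.876 in limma), and those at Hoxa3 and Hoxb13 in 2 of 15 each.

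Hoxb6 had 435 and 736 bp in untreated and 1035 and 1296 bp in induced fibroblasts, 444 and 601 bp with the empty vector and 818 and 703 bp in the knockout. Hoxb3 had 250 and 283 bp, 539 and 415 bp, 532 and 604 bp, and 706 and 1028 bp in that order. At both genes the lists having TCF-1 were higher in fibroblasts and lower in DN3 cells. Genome-wide 29.0% of 15099 genes were called in this direction and 0.192% in the other, and the median was −1.14 for all genes and −0.93 for the members. With equal totals the median of all genes was −0.03, and 3 members, Hoxa3, Hoxa4 and Hoxb13, were called. The genome-wide share called in that setting is not given here, so this count cannot be set against a background. The part of list length in these differences was not tested further. The number of members was 3 without the replicate 1 lists of untreated, induced or empty vector cells or without either knockout list, and 8 without the induced list of replicate 2.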

How the results depend on the processing

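Counts of members called are given with the count reported first. The genome-wide share called also moves with the setting and is not given for most of these settings. The counts in this section therefore show how far the calls moved and are not set against a background. CTCF between lines (5) became 0 with the replicate block, which called no gene (410 under an unadjusted p of 0.05), and 9 with only the lists having TCF-1. SMC1 between lines (16) became 26 with 10 kb around genes. SMC1 between DN3 conditions (1) became 0 with 1000 bp added, no filter, equal totals, equal list length or the block, and 4 with 10 kb. H3K27ac (3) became 0 with no filter or the block and 9 with 10 kb. CTCF with induction (4) became 2 with no filter, 1 with equal totals, 7 with 10 kb and 0 with the block. The difference of CTCF changes (5) became 3 with no filter, equal totals or stricter peaks, 2 with equal list length, 12 with 10 kb and 0 with the block. Hoxb5 reversed to 1.02 for SMC1 with 10 kb.

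For regions, CTCF in DN3 alone (2) became 1 with equal list length or no flanks, and in fibroblasts alone (7) 3 with 50% overlap and 4 with stricter peaks. SMC1 in DN3 alone (10) became 3 with no flanks, and in fibroblasts alone (43) 28 with stricter peaks and 18 with no flanks. With equal list length, CTCF with the empty vector alone (0) became 2, SMC1 likewise (0) became 3, CTCF in the knockout alone (2) became 1, as with stricter peaks, and SMC1 in the knockout alone (8) became 2, as with stricter peaks, and 4 with no flanks. NIPBL in the knockout alone (0) became 1 with equal list length or stricter peaks. H3K27ac with the empty vector alone (4) became 1 with no flanks. CTCF when induced alone (17) became 6, 9 and 5 with equal list length, stricter peaks and no flanks. SMC1 when induced alone (14) became 23 with 50% overlap, 8 with stricter peaks and 5 with no flanks, and when untreated alone (17) 9 with stricter peaks and 6 with no flanks. TCF-1 in DN3 alone (0) became 1 with equal list length, and in fibroblasts alone (48) 5, 28 and 30 with equal list length, stricter peaks and no flanks.

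Leaving out 1 list at a time gave 4 to 6 members for CTCF and 16 to 19 for SMC1 between lines, 0 for CTCF, SMC1 and NIPBL between DN3 conditions, 1 to 2 for H3K27ac, 0 to 4 for CTCF with induction and 3 to 8 for the difference of CTCF changes. For regions it gave 2 to 3 (CTCF) and 10 to 11 (SMC1) in DN3 alone, 7 to 8 and 43 to 58 in fibroblasts alone, 0 to 1 (CTCF), 0 to 3 (SMC1), 0 to 3 (NIPBL) and 5 to 10 (H3K27ac) with the empty vector alone, and 2 to 7, 10 to 19, 0 to 3 and 1 to 3 in the knockout alone. CTCF gave 19 to 25 when induced alone and 0 to 1 when untreated alone, and TCF-1 0 in DN3 alone and 48 to 49 in fibroblasts alone.

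Counts of members called, or of regions in 1 group alone, moved by over 1.5 times in 85 settings and not in 180. Single genes and counts of regions in every list were tallied together, and these kept their call or count in 416 settings. Single genes missed the threshold in 108 settings and reversed in 1. The 22 settings that moved were all counts of regions in every list. Lists with the same replicate number did not deviate together (correlation −0.163 for CTCF and −0.251 for NIPBL in DN3, −0.0338 to 0.0690 elsewhere). Pairing by number was thus not seen, though these values cannot exclude it. With the pairing crossed CTCF and NIPBL in DN3 had 0 calls, as in the fits reported first, so the crossed fits cannot decide on pairing. No block was possible for SMC1 between lines. Width stands in for strength, and read depth is unknown.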
